A study of Homo sapiens with 12 samples.

Results

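POU4F1 and 8 genes of neurons were followed through a test of the fusion transcription factor PAX3-FKHR in a muscle tumour line. The 9 genes, of 11963 with their own probe sets on the array, were POU4F1, NEFL, NEFM, NEFH, GAP43, STMN2, L1CAM, SOX21 and SLC6A3. They were taken by name, through probe sets annotated with that 1 symbol, which gave 17 probe sets. They were selected on their log2 changes with 4-hydroxytamoxifen (4-OHT) per construct and replicate pair, which were known from these arrays, so those changes, and any count of members past a threshold in them, are given as a description. RD cells, an established line from an embryonal rhabdomyosarcoma, carried PAX3-FKHR-ER or the empty vector pK1. In PAX3-FKHR-ER a modified ligand-binding domain of the estrogen receptor is attached, which lets 4-OHT switch the protein on. Each construct was given 30 nM 4-OHT for 24 h or left without it, in 3 arrays per group and 12 in all. All groups were grown in the same serum-containing medium, and the control cells carry the vector without the fusion. The design text speaks of 3 populations per construct, and nothing in the labels says whether a replicate number marks a population, so the spread between arrays may be partly technical.

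POU4F1, also called BRN3A, is a transcription factor with a POU-specific domain and a homeodomain that helps specify sensory neurons, and it is known in some tumours outside the nervous system. NEFL, NEFM and NEFH are the light, medium and heavy neurofilament chains, which assemble into the intermediate filaments of axons. GAP43 and STMN2 act in growing axons, GAP43 at the membrane of the growth cone and STMN2 on microtubules, and L1CAM is an adhesion molecule of axons. SOX21 is a SOX transcription factor of neural progenitors, and SLC6A3 is the dopamine transporter of dopamine neurons.

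Values are probe set signals on a linear scale, and 1 probe set cannot be set against another. A group difference below is on the log2(signal + 16) scale, which understates the ratio between dim signals. Probe sets among the dimmest 40% of the array, with a mean signal under 36.7 over the 12 arrays, were not tested. That left 11 of the 17 probe sets and 8 of the 9 genes, since both STMN2 probe sets lay under it. The 4 arrays of replicate 1 stood apart. Their poly-A spike-in controls, RNA added before labelling, had median signals of 2.58 to 7.41, against 118 to 291 on the other 8. Log2 signals of replicate 1 arrays correlated at 0.957 to 0.982 among themselves and at 0.815 to 0.869 with the rest, which correlated at 0.867 to 0.982 with each other. Without 4-OHT, replicate 1 also went against its construct labels on most probe sets of the genes in the construct. Of 14 probe sets for PAX3, FOXO1 (FKHR) and ESR1, whose sequences the construct draws on, 8 were higher with 4-OHT in the array labelled PAX3-FKHR-ER than in that labelled pK1 in replicate 1, 11 in replicate 2 and 10 in replicate 3. Without 4-OHT the counts were 2, 12 and 9. One ESR1 probe set, chosen after its values were seen, read 44.7, 58.6 and 39.2 with 4-OHT in arrays labelled PAX3-FKHR-ER in replicates 1, 2 and 3, against 58.4, 5.05 and 5.78 in those labelled pK1. Without 4-OHT it read 7.50, 121 and 76.2 in arrays labelled PAX3-FKHR-ER, against 57.0, 4.16 and 12.7 in those labelled pK1. Many of the 14 were dim, and a FOXO1 probe set went against the labels in replicates 2 and 3 with 4-OHT. It read 3.71 and 16.4 in PAX3-FKHR-ER arrays, against 56.4 and 36.6 in pK1 arrays. Labels of replicate 1 are thus opposed by most of these probe sets without 4-OHT and followed by 8 of 14 with it. Which of the 14 read sequence that the construct holds is not known here, so these counts do not settle the labels. A direction drawn from replicate 1 below rests on those labels, and constructs there are named as labelled. Values are therefore given by replicate, and the fits with and without replicate 1. Fits to replicates 2 and 3 alone hold the replicate number as a block unless stated otherwise. Of muscle lineage markers on the array, 7 of 9 passed the signal filter, among them MYOD1, as did 7 of 10 neuron markers and 1 of 6 glial markers. Of all 11963 genes with their own probe sets 8124 passed, so nothing is read from the muscle and neuron counts. The neuron markers ELAVL3, SYP and GAD1 lay under the filter. The summed signal of the neuron markers was 3779 to 5303 in PAX3-FKHR-ER cells with 4-OHT and 3619 to 5339 in those without. It was 2767 to 3966 in pK1 cells with 4-OHT and 2666 to 3874 in those without, and its part in the differences between constructs below was not tested. TUBB3 made up most of this sum, with a mean signal of 3140 over the 12 arrays, and the next highest marker, RBFOX1, averaged 309. A probe set is said to pass where its limma p, adjusted over all 13329 tested, is under 0.05. A change in the share of cells that express a gene and a change in RNA per cell cannot be told apart here.

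POU4F1 was highest in PAX3-FKHR-ER cells with 4-OHT in replicates 2 and 3. The first of its probe sets read 228, 877 and 605 with 4-OHT in replicates 1, 2 and 3 of PAX3-FKHR-ER cells, against 184, 409.5 and 233 without. The pK1 cells gave 362, 278 and 129.6 with 4-OHT, against 240.3, 247 and 179 without. The 2 highest of the 12 values were thus the PAX3-FKHR-ER arrays with 4-OHT of replicates 2 and 3, while the library so labelled in replicate 1 lay within the range of the vector cells. The second probe set read 65.3, 447 and 293 with 4-OHT in PAX3-FKHR-ER cells, against 39.4, 192 and 61.0 without. The pK1 cells gave 128, 116 and 35.1 with 4-OHT, against 93.1, 74.2 and 30.4 without. Both probe sets put the same 2 arrays on top.

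Change per pair, with minus without 4-OHT, was 0.28, 1.07 and 1.32 for the first POU4F1 probe set in replicates 1, 2 and 3 of PAX3-FKHR-ER cells. The vector pairs gave 0.56, 0.16 and -0.42. For the second probe set the changes were 0.55, 1.16 and 2.01 in PAX3-FKHR-ER cells and 0.40, 0.55 and 0.14 in pK1 cells. Every PAX3-FKHR-ER pair was positive on both probe sets, but in replicate 1 the vector pair was larger on the first set and smaller on the second. Over 12 arrays the mean change was 0.89 ± 0.49 (SE) for the first probe set and 1.24 ± 0.69 (SE) for the second, with SEs of 0.22 and 0.24 where the replicate was a block. Fitted as pairs in replicates 2 and 3, it was 1.19 ± 0.17 (SE) and 1.58 ± 0.23 (SE). The change in PAX3-FKHR-ER cells minus that in pK1 cells was 0.79 ± 0.69 and 0.87 ± 0.97 (SE) over 12 arrays, and 1.32 ± 0.23 and 1.23 ± 0.33 (SE) in replicates 2 and 3.

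**Figure D1:**
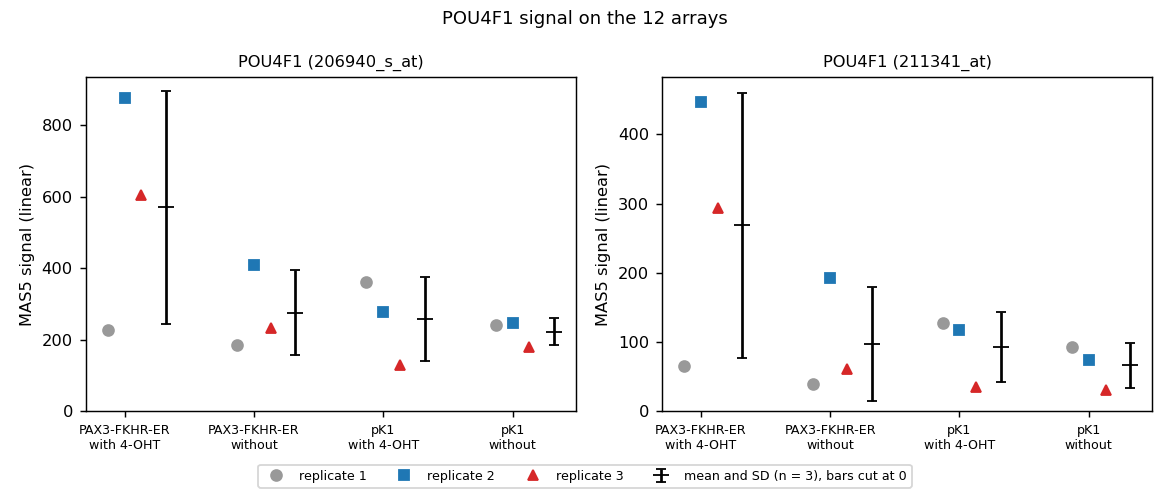
Signal of the POU4F1 probe sets (y axis, linear) in the 4 groups (x axis), with 1 point per array by replicate and the mean with its SD beside them. The PAX3-FKHR-ER arrays with 4-OHT of replicates 2 and 3 read 877 and 605 on the left panel, above the other 10 arrays, and replicate 1 read 228.

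The POU4F1 group mean was highest in PAX3-FKHR-ER cells with 4-OHT and lowest in pK1 cells without it. The first probe set averaged 570 ± 326 in PAX3-FKHR-ER cells with 4-OHT and 276 ± 119 in those without (SD, n = 3). It averaged 257 ± 118 in pK1 cells with 4-OHT and 222 ± 37.2 in those without (SD, n = 3). No neighbours in that order differed by more than their spread over the 3 arrays. Without replicate 1 the means were 741 ± 193 and 321 ± 125 in PAX3-FKHR-ER cells with and without 4-OHT (SD, n = 2), and 204 ± 105 and 213 ± 47.7 in pK1 cells. There the first stood clear of the second and the rest lay within their spread.

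Between constructs, POU4F1 with 4-OHT differed by 1.02 ± 0.49 (SE) over 12 arrays on the first probe set, PAX3-FKHR-ER minus pK1, with a limma adjusted p = 1. These arrays also enter the 4-OHT comparison the gene was chosen with, so this is no independent test. Within replicates 2 and 3 the difference was 1.85 ± 0.21 (SE) with the replicate number as a block (limma adjusted p = 0.0487) and had a limma adjusted p of 0.251 without it, where 0 of the 11 passed against 0.0975% of all (0.0825% higher and 0.0150% lower). The second probe set gave 2.20 ± 0.27 (SE) and limma adjusted p = 0.0534. In replicate 1, as labelled, the order was the other way, at -0.63 on the first probe set and -0.82 on the second. Without 4-OHT the first probe set differed by 0.23 ± 0.49 (SE) over 12 arrays (limma adjusted p = 1) and by 0.52 ± 0.21 (SE) in replicates 2 and 3 (limma adjusted p = 0.499). Of the 11 tested probe sets, 1 passed with 4-OHT in that paired fit, where 0.158% of all 13329 did. Without 4-OHT 0 of the 11 passed, where 0.00750% of all did, and 3 of the 11 had an unadjusted p under 0.05, against 9.75% of all. With 4-OHT 5 of the 11 had an unadjusted p under 0.05 in the paired fit, against 1732 of all 13329. Over 12 arrays 0 of the 11 passed between constructs, where 0.00% of all did. Without 4-OHT 0 of 11 had an unadjusted p under 0.05 in that fit, against 2.08% of all. With 4-OHT 2 of 11 did, SLC6A3 and SOX21, against 267 of all 13329. The members were chosen on these arrays, so counts between constructs describe them only. With the replicate block on 12 arrays 0 of the 11 passed either, and 3 of 11 with 4-OHT and 0 of 11 without had an unadjusted p under 0.05, against 6.98% and 7.36% of all.

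The sequence before the POU4F1 start is shown beside that of SOX21, because these were the members with all 3 PAX3-FKHR-ER pairs positive on every tested probe set. Both genes lie on chromosome 13, and the windows run from 250 bases before to 50 after the start in RefSeq (GRCh38.p14, minus strand), at chr13:78603503-78603802 and chr13:94712496-94712795. Capitals mark CANNTG, the E-box core read by basic helix-loop-helix factors such as MYOD1, which reads the same on both strands. The matches did not overlap.
POU4F1: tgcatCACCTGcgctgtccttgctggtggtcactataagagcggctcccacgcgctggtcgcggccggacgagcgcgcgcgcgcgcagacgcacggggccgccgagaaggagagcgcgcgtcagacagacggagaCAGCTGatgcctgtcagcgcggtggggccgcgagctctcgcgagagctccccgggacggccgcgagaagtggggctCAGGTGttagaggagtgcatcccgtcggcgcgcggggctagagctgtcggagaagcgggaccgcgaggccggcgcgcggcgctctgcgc
SOX21: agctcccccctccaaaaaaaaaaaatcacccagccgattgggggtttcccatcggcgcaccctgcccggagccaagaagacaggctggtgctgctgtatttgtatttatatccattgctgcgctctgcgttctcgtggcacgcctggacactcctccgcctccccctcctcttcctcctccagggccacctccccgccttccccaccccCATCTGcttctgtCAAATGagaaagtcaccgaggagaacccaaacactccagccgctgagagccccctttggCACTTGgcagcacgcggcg
Each window held 3 matches, starting at -245, -115 and -39 from the POU4F1 start and at -41, -28 and 32 from that of SOX21. At least 1 match occurred in 68.7% of 35116 promoter windows and at least 3 in 15.3%. ATTA, the core read by homeodomains such as that of PAX3, was found on either strand in neither window, and 50.2% of all windows hold it. Of the 9 members, 4 have a window in the table used.

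SOX21 was higher with 4-OHT in every PAX3-FKHR-ER pair and lower with 4-OHT in every pK1 pair. Its signal was 43.1, 58.6 and 40.5 with 4-OHT in replicates 1, 2 and 3 of PAX3-FKHR-ER cells, against 26.8, 47.1 and 12.7 without. The pK1 cells gave 26.8, 7.18 and 29.9 with 4-OHT, against 59.7, 47.5 and 52.8 without. The PAX3-FKHR-ER groups overlapped, and the pK1 groups did not, where 3.28% of all tested probe sets were lower with 4-OHT in pK1 cells without overlap. Changes per pair were 0.47, 0.24 and 0.98 in PAX3-FKHR-ER cells and -0.82, -1.45 and -0.58 in pK1 cells. All 6 values thus went by the labelled construct, though in replicate 1 that label is in doubt, in a gene whose mean signal of 37.7 lay just above the filter.

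Between constructs, SOX21 stood in a different order with and without 4-OHT. With 4-OHT every PAX3-FKHR-ER array read above every pK1 array, at 0.82 ± 0.34 (SE) and a limma adjusted p = 1. Without 4-OHT every PAX3-FKHR-ER array read below every pK1 array, the nearest pair being 47.1 and 47.5, at -0.70 ± 0.34 (SE) and a limma adjusted p = 1. Without replicate 1 the differences were 0.99 ± 0.51 and -0.63 ± 0.51 (SE), with limma adjusted p = 0.464 and 0.699. Neither comparison was past the threshold in any of those fits. With constants of 1 and 64 in place of 16 before the log, the change in pK1 cells was -1.50 and -0.47, against -0.95.

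SLC6A3 was uniformly dim in vector cells with 4-OHT and brighter in every PAX3-FKHR-ER array. With 4-OHT it read 41.4, 77.2 and 65.4 in PAX3-FKHR-ER cells in replicates 1, 2 and 3, against 11.0, 11.0 and 11.7 in pK1 cells. Without 4-OHT it read 33.3, 85.1 and 57.9 in PAX3-FKHR-ER cells, against 58.5, 9.59 and 41.6 in pK1 cells. The constructs did not overlap with 4-OHT and did without. The difference with 4-OHT was 1.48 ± 0.40 (SE) over 12 arrays and did not pass (limma adjusted p = 1). SLC6A3 was above the signal filter of 36.7 through the PAX3-FKHR-ER groups, since its mean in pK1 cells was 11.2 with and 36.6 without 4-OHT. Without replicate 1 it was 1.67 ± 0.43 (SE), limma adjusted p = 0.206. Without 4-OHT it was 0.58 ± 0.40 (SE), limma adjusted p = 1, and 1.17 ± 0.43 (SE), limma adjusted p = 0.469, in replicates 2 and 3. The change with 4-OHT per pair was 0.22, -0.12 and 0.14 in PAX3-FKHR-ER cells and -1.47, 0.08 and -1.05 in pK1 cells. The values of 11.0 lie under the constant added before the log, so the log2 sizes understate the ratio of the printed signals. No detection calls were used, so whether signals this low lie above background is not known.

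Arrays that did not overlap between constructs were thus seen for 2 of 11 member probe sets with 4-OHT, both higher in PAX3-FKHR-ER cells, where 3.18% of all tested probe sets were higher without overlap. Without 4-OHT this held for 1 of 11, lower in PAX3-FKHR-ER cells, where 3.08% of all were. Nothing is read from these counts: SOX21 and SLC6A3 averaged 21.3 and 11.2 in pK1 cells with 4-OHT and so passed the filter through other groups, and the arrays are those the members were chosen on.

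**Figure D2:**
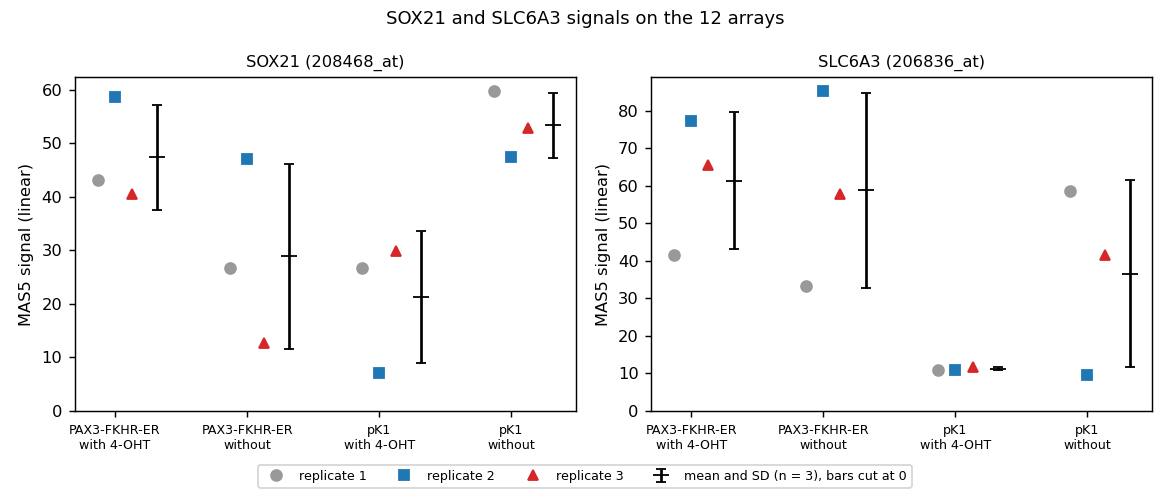
Signal of SOX21 and SLC6A3 (y axis, linear) in the 4 groups (x axis), with 1 point per array by replicate and the mean with its SD. SLC6A3 read 11.0, 11.0 and 11.7 in pK1 cells with 4-OHT, below all PAX3-FKHR-ER arrays, and SOX21 lay lower with than without 4-OHT in pK1 cells.

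NEFM and NEFL were lower with 4-OHT in replicates 2 and 3 of PAX3-FKHR-ER cells, where POU4F1 was higher, and NEFH hardly differed. NEFM, the medium chain, read 45.5, 77.5 and 160.4 with 4-OHT in PAX3-FKHR-ER cells in replicates 1, 2 and 3, against 52.4, 148 and 316 without. Vector cells gave 17.4, 787 and 294 with 4-OHT, against 46.4, 699 and 285 without. The groups overlapped throughout, and replicates differed more than treatments did. Within pairs the change was -0.15, -0.81 and -0.91 in PAX3-FKHR-ER cells and -0.90, 0.17 and 0.04 in pK1 cells. Fitted as pairs without replicate 1, it was -0.86 ± 0.13 (SE) in PAX3-FKHR-ER cells and 0.11 ± 0.13 (SE) in pK1 cells, and -0.97 ± 0.19 (SE) for the difference. Over 12 arrays the change in PAX3-FKHR-ER cells was -0.62 ± 1.13 (SE).

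NEFM also varied by array far beyond its change with 4-OHT. The pK1 arrays of replicate 2, at 787 and 699, were the highest of the 12. On those same arrays the summed signal of the 9 muscle markers was lowest, at 1156 and 1310, against 3518 to 11020 on the other 10; the part of this in the NEFM values was not tested. The difference between constructs, PAX3-FKHR-ER minus pK1, was -3.10 and -0.81 with 4-OHT and -2.13 and 0.14 without in replicates 2 and 3. In replicate 1 it was 0.88 with and 0.13 without 4-OHT. The fit to 12 arrays gave -1.01 ± 1.13 (SE) with and -0.62 ± 1.13 (SE) without 4-OHT, each with a limma adjusted p = 1. Without replicate 1 it was -1.96 ± 0.64 (SE) with 4-OHT (limma adjusted p = 0.284) and -0.99 ± 0.64 (SE) without (limma adjusted p = 0.639).

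NEFL, the light chain, had the same direction as NEFM in those pairs. The first of its probe sets read 38.6, 219.9 and 272 with 4-OHT in PAX3-FKHR-ER cells, against 30.6, 270.4 and 425 without. Vector cells gave 46.0, 480.3 and 357 with 4-OHT, against 18.3, 479 and 320.4 without. Replicate 1 was the lowest array in every group. The change per pair was 0.23, -0.28 and -0.62 in PAX3-FKHR-ER cells and 0.86, 0.00 and 0.15 in pK1 cells. A second probe set gave -0.20, -0.27 and -0.47 in PAX3-FKHR-ER cells and -0.51, -0.03 and 0.06 in pK1 cells. The remaining probe set, with a mean of 18.5, was not tested and changed by 0.21, -0.82 and -0.70 in PAX3-FKHR-ER cells. All NEFL probe sets were thus lower with 4-OHT in replicates 2 and 3 of PAX3-FKHR-ER cells and disagreed in replicate 1. Without replicate 1 the fitted changes of the tested probe sets were -0.45 ± 0.14 and -0.37 ± 0.14 (SE) in PAX3-FKHR-ER cells, and 0.08 ± 0.14 and 0.01 ± 0.14 (SE) in pK1 cells.

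NEFH, the heavy chain, differed more between replicates and constructs than with 4-OHT. The first of its probe sets read 8.71, 92.7 and 46.2 with 4-OHT in PAX3-FKHR-ER cells in replicates 1, 2 and 3, against 11.0, 104 and 46.1 without. The pK1 cells gave 18.3, 10.2 and 91.2 with 4-OHT, against 16.7, 13.4 and 87.3 without. The pair values lay close together in all 6 pairs, with changes of -0.17 to 0.07, while replicates of a group lay far apart. Its other probe set changed by -0.45, -0.18 and 0.09 in PAX3-FKHR-ER cells and by -0.73, -0.62 and -0.21 in pK1 cells. The constructs stood in opposite order in the remaining replicates: PAX3-FKHR-ER minus pK1 on the first set was 2.05 in replicate 2 and -0.78 in replicate 3 with 4-OHT, and 2.03 and -0.73 without.

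**Figure D3:**
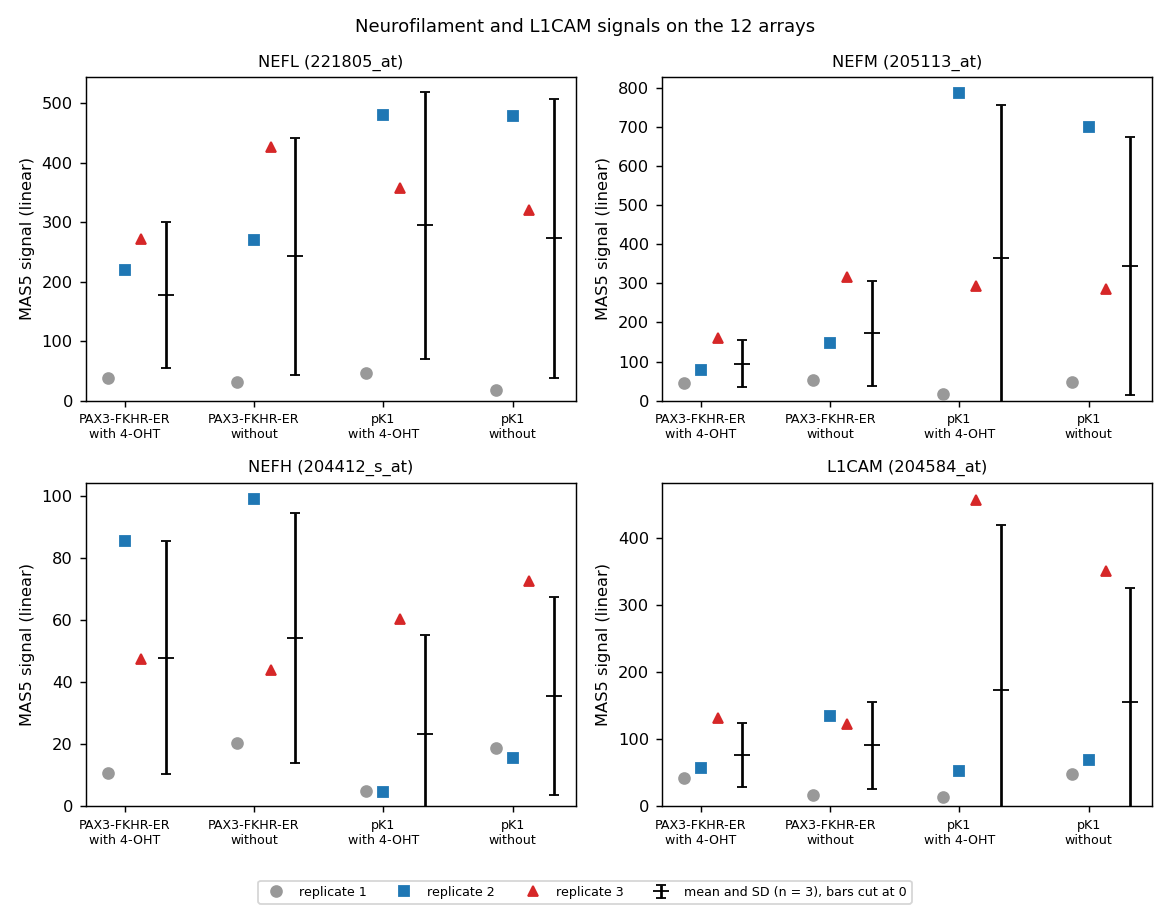
Signal of NEFL, NEFM, NEFH and L1CAM (y axis, linear) in the 4 groups (x axis), 1 probe set each, with 1 point per array by replicate and the mean with its SD. The NEFH panel shows its other, dimmer probe set, not the one whose signals the text gives. Replicates of a group differ more than treatments do, as for NEFM in pK1 cells with 4-OHT, at 17.4, 787 and 294.

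L1CAM, the axonal adhesion molecule, was highest in pK1 replicate 3. Its signal was 41.6, 57.7 and 132 with 4-OHT in PAX3-FKHR-ER cells, against 16.3, 134 and 123 without. The pK1 cells gave 13.3, 52.6 and 457 with 4-OHT, against 47.8, 68.8 and 351 without. The pairs had no common direction, at 0.83, -1.03 and 0.08 in PAX3-FKHR-ER cells and -1.13, -0.31 and 0.37 in pK1 cells. A second probe set lay under the filter, between 4.22 and 56.8, and had its 2 highest values in the same pK1 arrays of replicate 3.

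GAP43 and STMN2, the growth cone genes, were dim. The 1 tested GAP43 probe set read 45.5, 23.2 and 26.0 with 4-OHT in PAX3-FKHR-ER cells, against 27.2, 44.1 and 41.6 without. Vector cells gave 25.6, 58.7 and 49.3 with 4-OHT, against 48.8, 41.4 and 57.4 without. Except in replicate 1 it was thus lower with 4-OHT in PAX3-FKHR-ER cells, at -0.62 and -0.45, where replicate 1 gave 0.51. Between constructs with 4-OHT it differed by -0.33 ± 0.29 (SE) over 12 arrays (limma adjusted p = 1). Without replicate 1 that was -0.78 ± 0.29 (SE), limma adjusted p = 0.330. The other GAP43 probe sets had means of 14.9 and 4.55 and were not tested. Both STMN2 probe sets, with means of 7.21 and 2.86, ranged from 0.895 to 21.7 over the 12 arrays and give no direction.

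**Figure D4:**
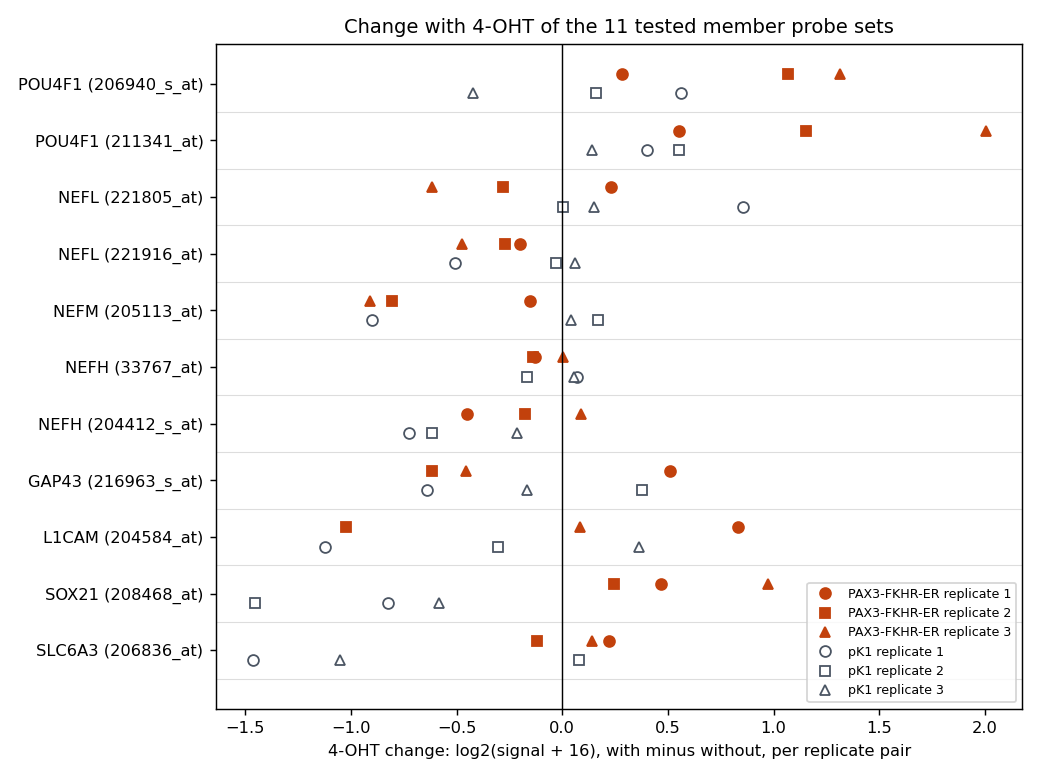
Change with 4-OHT per replicate pair (x axis, log2(signal + 16), with minus without) of the 11 tested member probe sets (y axis), PAX3-FKHR-ER pairs filled above and pK1 pairs open below. POU4F1 and SOX21 are right of 0 in all 3 PAX3-FKHR-ER pairs, and NEFM is left of 0 in them.

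Across the members, no common shift was seen. In PAX3-FKHR-ER cells 0 of 11 probe sets passed in limma over 12 arrays, where 0.00% of 13329 did, and 0 of 11 had an unadjusted p under 0.05, against 0.465% of all. With the replicate block on 12 arrays 0 of 11 passed, where 0.00% of all did, and 4 of 11 had an unadjusted p under 0.05, against 6.71% of all. In replicates 2 and 3, fitted as pairs, 3 of 11 passed, where 1.40% of all did. They were both POU4F1 probe sets, higher with 4-OHT, and NEFM, lower. By direction, 2 of 11 were higher, where 0.795% of all were, and 1 of 11 lower, where 0.600% were. In that fit 5 of 11 had an unadjusted p under 0.05, against 11.8% of all. All 3 pairs were positive for 3 of 11, where this held for 13.2% of all, and negative for 2 of 11, where it held for 14.9%. As the members were chosen with this contrast in view, these counts describe them only, and nothing is read from them. The median change over the 8 tested genes, by brightest probe set, was -0.06 over 12 arrays, with 3 genes positive, against a median of -0.01 over all tested probe sets. In replicates 2 and 3 it was -0.26, again with 3 positive, against -0.02. In pK1 cells the members' median was -0.19 over 12 arrays and -0.01 in replicates 2 and 3. There 0 of the 11 passed in either fit, where 0.00% of all did, and 1 of 11 had an unadjusted p under 0.05 over 12 arrays, where 0.540% of all did. With the block on 12 arrays 3 of 11 did, against 6.87%, and as pairs in replicates 2 and 3 1 of 11 did, against 5.70%. All 3 pK1 pairs were positive for 2 of 11 (12.6% of all) and negative for 2 of 11 (16.6% of all). For the difference of the changes 0 of 11 passed over 12 arrays (0.00% of all), and 1 of 11 had an unadjusted p under 0.05 (0.293% of all), or 4 of 11 with the block (4.76% of all). In replicates 2 and 3 as pairs 0 of 11 passed for that difference, where 0.0525% of all did. There 5 of 11 had an unadjusted p under 0.05, against 9.85% of all, and these counts too describe the members only.

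The 5 genes whose 6 pair changes lay nearest to those of POU4F1 included none of the other members. By root mean square difference over the 6 pairs, the nearest of 8123 genes were ZNF395, a zinc finger protein (0.26), ANK1, an ankyrin of red cells and muscle (0.26), SOCS2, an inhibitor of cytokine signalling (0.28), SLC7A7, an amino acid transporter subunit (0.28), and TRIB3, a pseudokinase of the stress response (0.29). SOCS2 read 66.4, 809.7 and 793 with 4-OHT in PAX3-FKHR-ER cells in replicates 1, 2 and 3, against 67.7, 349 and 436 without. ANK1 read 448, 1079 and 1073 with 4-OHT in PAX3-FKHR-ER cells, against 449, 489 and 391 without. In pK1 cells ANK1 read 943, 103 and 349.5 with 4-OHT, against 564, 96.2 and 324 without. The likeness of these genes to POU4F1 is fixed by how they were chosen. Among the members NEFH came nearest, at 0.81 and place 3604, and NEFM was farthest, at 1.36 and place 8014.

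Other neuronal genes were counted in 8 lists written from general knowledge, with 126 genes, of which 112 were on the array and 59 were tested. Over 12 arrays 0 of the 59 passed with 4-OHT in PAX3-FKHR-ER cells, and 27 were positive, with a median of -0.03 against -0.02 over all genes. Fitted as pairs in replicates 2 and 3, 1 of 59 passed, a share near the 1.40% of all probe sets. That was CRMP1, a collapsin response mediator of growing axons, which read 436 and 443 with 4-OHT in those PAX3-FKHR-ER arrays, against 224 and 227 without (0.92 ± 0.14 SE, limma adjusted p = 0.0173). In replicate 1 CRMP1 went the other way, at 5.81 with and 27.0 without 4-OHT. For pK1 cells, and for the difference of the 4-OHT changes, 0 of the 59 passed in either fit. The same was true of the constructs with and without 4-OHT.

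The neuronal cytoskeleton list, in large part tubulins and microtubule proteins, had 17 tested genes of 19. In replicates 2 and 3 of PAX3-FKHR-ER cells 6 were positive, 1 passed, and the median was -0.10. INA and PRPH, the relatives of the neurofilaments in this list, had mean changes of -0.19 and -0.20 there. DCX, a microtubule protein of migrating neurons, changed by 1.42 and 0.37, and TUBB2B, a neuronal tubulin, by -0.55 and -0.74, and neither passed (limma adjusted p = 0.285 and 0.0789). Of 5 tested SOX factors 0 passed and the median was 0.00. SOX11, another SOX factor of immature neurons, changed by -0.72 and -0.58, where SOX21 gave 0.24 and 0.98. The list of POU4F1 relatives and neuronal transcription factors had 7 tested genes of 25, with a median of -0.01 and 0 passing. The relatives POU4F2 and POU4F3 were not among those tested, which were ISL1, NEUROD2, RUNX3, GATA3, LHX2, MYT1 and the kinase HIPK2. Its largest change was that of MYT1, a zinc finger factor, at -1.43 and -0.46 (limma adjusted p = 0.170).

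The list of neurotrophin receptors, which sensory neurons depend on, had 5 tested genes with a median of 0.02. Among these were RET and GFRA1, which are receptors for ligands of the GDNF family. NTRK3, the receptor for neurotrophin 3, changed by 0.77 and 0.47 in replicates 2 and 3 of PAX3-FKHR-ER cells (limma adjusted p = 0.290). Synaptic vesicle and granule genes had a median of -0.07 over 9, of which ENO2, the neuronal enolase, changed most, by 1.40 and -0.31 (limma adjusted p = 0.633), and SYT1, a calcium sensor of vesicle release, changed by -0.27 and -0.45. Neuronal adhesion genes had a median of -0.03 over 6, and NCAM1, a neural adhesion molecule, changed by -0.40 and -0.24. Of RNA-binding and repressor genes 7 were tested, with a median of -0.02. REST, the repressor of neuronal genes in other tissues, changed by -0.02 and 0.70. Monoamine genes, which include partners of SLC6A3, had 3 tested of 14, with a median of 0.13. In these 5 lists 0 genes passed.

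**Figure D5:**
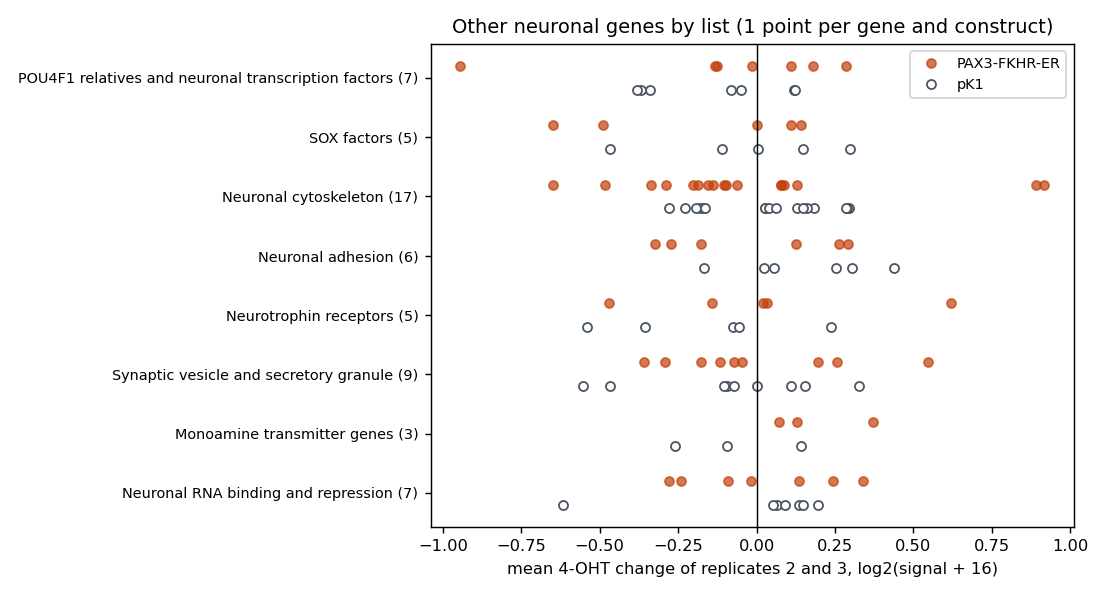
Mean change with 4-OHT in replicates 2 and 3 (x axis, log2(signal + 16)) of the 59 tested genes in 8 lists (y axis, number of genes in brackets), PAX3-FKHR-ER filled and pK1 open. The points lie on both sides of 0 in the lists of more than 3 genes, and CRMP1, at 0.92, is the highest.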

How the data were processed

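RNA of each of the 12 samples went onto 1 Affymetrix array. The values deposited by the authors are intensity signals per probe set on a linear scale. GCOS and MAS5 are the tools that the submitters' processing notes name, without a version. No detection calls were used here. Of 22283 probe sets, 68 controls were left out. Of the other 22215, 19065 had 1 gene symbol in the array annotation, 1043 several and 2107 none.

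Signals were used as log2(signal + 16) without further scaling. Removing the dimmest 40% kept 13329 probe sets of 8124 genes. The model, limma 3.58.1 under R 4.3.3 with eBayes and an intensity trend, had 1 mean per group over the 12 arrays. Tests were two-sided, with Benjamini-Hochberg adjustment over all 13329 and a threshold of 0.05. Fits with the replicate as a block, and fits to the 8 arrays of replicates 2 and 3, were run beside it, and the closing section gives the other alternatives. Same-numbered samples deviated together from their group means: r was 0.703 to 0.851 between treatments of a construct, and 0.152 to 0.685 between constructs. By the rule that each exceed 0.1 the numbers were taken as pairs, which is weaker for the constructs. For 4-OHT in replicates 2 and 3, the block left only 2 degrees of freedom to estimate the spread. Figures used matplotlib 3.10.9 in Python 3.11.15.

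The members, the lists and the use of replicates 2 and 3 alone were chosen with earlier results of these data known. Named genes were the 9 members, the 5 genes nearest POU4F1 by their 6 changes, and up to 3 genes per list with the largest mean change in replicates 2 and 3 of PAX3-FKHR-ER cells. Marker lists had 10 muscle, 10 neuron and 8 glial genes, and summed signals lay between 1156 and 11020, 2666 and 5339, and 42.1 and 191. With 3 arrays per group, the number of arrays limits the precision.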

Additional observations from a re-analysis of the deposited data

Results flagged for a closer look

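The change of SOX21 with 4-OHT differed between the constructs by 1.51 on the log2 scale, PAX3-FKHR-ER minus pK1, as the mean over 3 pairs. It was 2.36 with a constant of 1 before the log and 0.74 with 64. It was picked out because all 3 PAX3-FKHR-ER pairs were positive and all 3 pK1 pairs negative. Of all 13329 tested probe sets, 1.53% had that pattern. The pattern itself was not tested. In limma over all arrays the difference did not pass, without the replicate block or with it (limma adjusted p = 0.926 with the block). Fitted as pairs without replicate 1, it was 1.63 ± 0.46 (SE) and did not pass either (limma adjusted p = 0.297). SOX21 was among genes chosen with these changes in view, so these are no independent tests. In replicate 1 the construct label is in doubt. Its signals were dim, from 7.18 to 59.7.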

How the results depend on the processing

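Counts of probe sets past the threshold over 12 arrays were 0 in all 5 comparisons in limma, and 0 under the constants of 1 and 64, no signal filter, the 60% filter, quantile normalization, no intensity trend, the replicate block on 12 arrays, and without any 1 array. At an unadjusted p under 0.05 there were 62 (4-OHT, PAX3-FKHR-ER), 72 (4-OHT, pK1), 39 (difference of the changes), 277 (constructs without 4-OHT) and 267 (constructs with 4-OHT). In replicates 2 and 3 the count moved to 186 for 4-OHT in PAX3-FKHR-ER cells and 7 for the difference of the changes, both with the replicate block. Without it both were 0 in limma, with 270 and 144 at an unadjusted p under 0.05. For 4-OHT in pK1 cells it stayed at 0 in limma, with 67 at that unadjusted p, or 760 with the block. The constructs gave 1 without 4-OHT, with or without the block, and with 4-OHT 21 with the block and 13 without. POU4F1 between constructs with 4-OHT passed in that blocked fit (1.85, limma adjusted p = 0.0487) and in none of the other settings named here. The direction of NEFL between constructs without 4-OHT turned with the constant of 64 (-0.050) and in replicates 2 and 3 (-0.20 with or without the block), against 0.02 over 12 arrays. The 4-OHT change in pK1 cells also turned in replicates 2 and 3, from 0.10 to -0.13 for POU4F1 on its first probe set. It went from -0.23 to 0.11 for NEFM, from -0.14 to 0.11 for GAP43 and from -0.36 to 0.03 for L1CAM. For L1CAM the difference of the changes went from 0.32 to -0.50. Leaving out 1 array turned other untested or uncalled directions between constructs. Without 4-OHT the ranges were -0.080 to 0.46 for POU4F1, -1.18 to 0.99 for NEFL, -1.58 to 0.18 for NEFM, -0.18 to 0.92 for NEFH and -1.01 to 0.25 for L1CAM. With 4-OHT they were -1.48 to 0.21 for NEFL, -0.23 to 0.88 for NEFH and -1.07 to 0.93 for L1CAM, while POU4F1 stayed at 0.62 to 1.56, SOX21 at 0.50 to 1.00 and SLC6A3 at 1.33 to 1.68. For 4-OHT in PAX3-FKHR-ER cells, given as a description, they were 0.49 to 1.43 for POU4F1, -1.20 to 0.53 for NEFL, -1.21 to -0.074 for NEFM and -0.65 to 0.49 for NEFH. There L1CAM ranged from -0.76 to 0.35, SOX21 from 0.28 to 0.84, SLC6A3 from -0.19 to 0.33 and GAP43 from -0.39 to -0.06. In pK1 cells, also as a description, POU4F1 ranged from -0.19 to 0.50, NEFL from -0.85 to 1.27 and NEFM from -1.22 to 1.07. NEFH, GAP43 and L1CAM turned there too, while SOX21 stayed at -1.13 to -0.64 and SLC6A3 at -1.27 to -0.49. The difference of the changes turned for NEFL, NEFM, NEFH, GAP43 and L1CAM. It stayed at 0.39 to 1.33 for POU4F1, 1.20 to 1.80 for SOX21 and 0.58 to 1.35 for SLC6A3. The cause of these turns was not tested. Array signals near the constant of 16, as for SOX21, SLC6A3 and GAP43, limit the size of any change read from them.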

Other observations

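Of the 3 tested monoamine genes beside SLC6A3, none passed between constructs in limma in the fits to 12 arrays or in the paired fit to replicates 2 and 3. PITX3, a transcription factor of midbrain dopamine neurons, read 152 and 235 in replicates 2 and 3 in PAX3-FKHR-ER cells with 4-OHT, against 23.8 and 25.6 in pK1 cells. Without 4-OHT it read 158 and 129 in PAX3-FKHR-ER cells, against 34.9 and 21.1 in pK1 cells. In replicate 1 it read 237 with and 195 without 4-OHT in PAX3-FKHR-ER cells, against 279 and 164 in pK1 cells. GCH1, the first enzyme of biopterin synthesis, stood the other way, at 12.5 and 16.1 in PAX3-FKHR-ER cells with 4-OHT, against 232 and 59.8 in pK1 cells, and in replicate 1 at 10.9 against 15.0. DRD2, a dopamine receptor, had no common order, at 158 and 133.4 in PAX3-FKHR-ER cells with 4-OHT, against 102 and 118 in pK1 cells, and at 181 and 103 without 4-OHT, against 120 and 152. The orders of PITX3 and GCH1 were noticed after their values were seen.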
